A study of Saccharomyces cerevisiae with 12 samples.

Results

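The genes described here are the budding yeast (Saccharomyces cerevisiae) genes of arginine, histidine, branched-chain amino acid, lysine, aromatic amino acid, glutamate, glutamine, proline, asparagine and serine synthesis, together with GCN4. They were taken by pathway and systematic name, and the genes of sulfur amino acid synthesis were left out. Of 60 listed genes, 59 had a probe set among the 5581 S. cerevisiae genes tested, and TRP1 was not analysed here. RNA was measured on 12 Affymetrix GeneChip Yeast Genome 2.0 arrays in 4 groups of 3 biological replicates. In experiment A, euc1∆ cells (strain MJK448), which lack EUC1 (YMR111C), were compared with wild type (WT, strain Y0003). In experiment B, euc1-K231R cells (strain MJK612), in which arginine replaces a lysine of Euc1 that carries SUMO, were compared with WT arrays of their own (strain Y0003). All cells grew at 30°C in rich YP medium with 2% glucose and were harvested in exponential growth (OD600 between 0.7 and 1), and label was made from 300 ng of total RNA. Rich medium supplies amino acids to the cells. Each mutant was represented by a single strain, and the full genotypes of the strains were not used here.

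Gcn4 is the transcription factor that activates most amino acid biosynthesis genes of yeast when amino acids run short, a response called general amino acid control. Starvation activates the kinase Gcn2, which phosphorylates the initiation factor eIF2, and this raises the translation of GCN4 mRNA through short open reading frames in its leader. GCN4 mRNA on an array therefore reports the transcript and not the amount of Gcn4 protein. Several pathways have regulators of their own as well, among them the ArgR/Mcm1 complex for arginine, Leu3 for leucine, Lys14 for lysine and Aro80 for the breakdown of aromatic amino acids.

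Levels are log2 values computed by RMA, which corrects background, normalises the arrays and combines the probes for each gene into 1 value. Differences are mutant minus WT within an experiment, with the standard error (SE) of a limma fit, and a gene was called changed at an adjusted p under 0.05 over all 5581 genes. Arrays of a group correlated with an r of 0.996 to 0.999 across genes, and the median SD of the genes of interest within a group was 0.04 to 0.05, against 0.05 to 0.07 for all genes. EUC1 was lower by 5.36 log2 units in euc1∆ cells (limma, adjusted p = 2.26e-07) and by 1.02 in euc1-K231R cells (adjusted p = 0.000181). URA3, the marker carried with the K231R allele, differed by 0.01 in euc1∆ cells and by 2.79 in euc1-K231R cells. Probe sets for the fission yeast S. pombe, which have no target in these samples, had a 95th percentile of 5.30, and 58 of the 59 genes lay above it in all 4 groups.

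GCN4 (YEL009C, chromosome V) differed little from WT in either mutant. Its level was 14.12, 14.11 and 14.11 in euc1∆ arrays, against 14.10, 14.12 and 14.13 in WT arrays. In experiment B it was 14.32, 14.36 and 14.37 in euc1-K231R arrays, against 14.36, 14.36 and 14.41 in WT arrays. The arrays of mutant and WT overlapped in both experiments. The difference was -0.00 ± 0.03 (SE) in euc1∆ cells (limma, adjusted p = 0.962) and -0.02 ± 0.04 in euc1-K231R cells (adjusted p = 0.786).

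None of the 59 genes was called in either mutant, while 0.125% of all genes were called in euc1∆ and 0.896% in euc1-K231R. In euc1∆ cells the direction was nevertheless uneven. There, 45 of the 59 genes had a positive difference, compared with 50.5% of all genes, and their median difference was 0.04, compared with 0.00 for all genes. At an unadjusted p under 0.05 (limma), 14 of the 59 genes were higher in euc1∆, where 6.36% of all genes were, and 3 were lower, where 6% of all genes were, which together made 28.8% of the 59 genes and 12.4% of all genes. Leaving out 1 array gave 7 and 8 higher genes without euc1∆ replicates 1 and 2, 9 without WT replicate 1 or 2, and 10 or 11 otherwise; 1 gene was lower without euc1∆ replicate 2 or 3 or WT replicate 2 or 3. All 3 euc1∆ arrays lay above all 3 WT arrays for 20 genes (9.84% of all genes) and below them for 2 (8.24% of all genes). These counts describe the list and were not tested as a set.

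In euc1-K231R cells 39 of the 59 genes had a positive difference, compared with 51.6% of all genes, and the median was 0.02. At an unadjusted p under 0.05 (limma), 3 genes were higher (8.94% of all genes) and 3 lower (10.4% of all genes), together 10.2% of the 59 genes and 19.4% of all genes. Without euc1-K231R replicate 3 there were 8 higher genes, and without any other array 2 or 3. The arrays lay apart for 11 genes that were higher (14% of all genes) and 6 that were lower (11.8% of all genes). The differences of the 59 genes were small in both mutants: 57 were within 0.25 log2 units of 0 in euc1∆ and 58 in euc1-K231R.

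**Figure D1:**
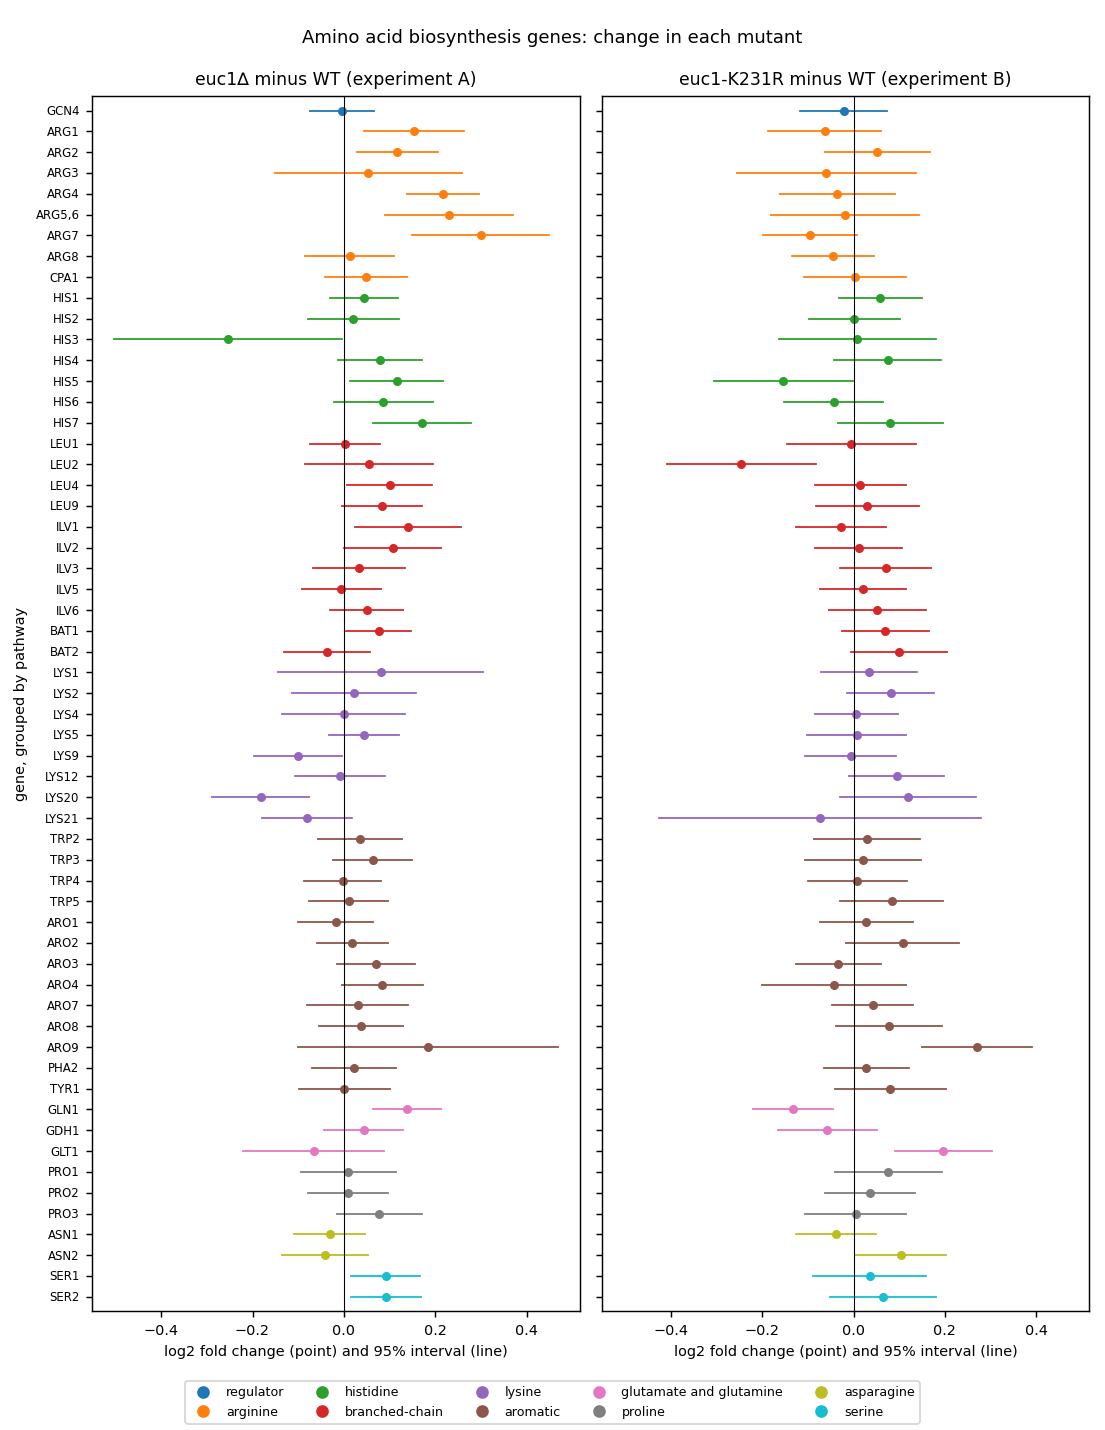
Log2 fold change (x axis, point) with its 95% interval (line) of 58 of the 59 genes (y axis, grouped and coloured by pathway), for euc1∆ minus WT on the left and euc1-K231R minus WT on the right. In euc1∆ most points lie above 0, among them all arginine genes shown, and in euc1-K231R the arginine points lie on both sides of 0.

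In euc1∆ cells all 9 arginine genes had a positive difference, with a median of 0.12, and 5 of the 9 were higher at an unadjusted p under 0.05 (limma; 6.36% of all genes) with all arrays above WT (9.84% of all genes). The mean level of the 9 genes was 11.23, 11.27 and 11.29 in euc1∆ arrays, against 11.16, 11.13 and 11.11 in WT arrays. All euc1∆ arrays were above all WT arrays, by 0.13 on average. In experiment B the same mean was 11.77, 11.79 and 11.77 in euc1-K231R arrays, against 11.79, 11.78 and 11.87 in WT arrays, which overlapped. There, 7 of the 9 genes had a negative difference, as did 48.4% of all genes, and the median was -0.04.

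ARG4 (YHR018C, chromosome VIII) encodes argininosuccinate lyase, which carries out the last step of arginine synthesis. Its level was 11.74, 11.73 and 11.72 in euc1∆ arrays, against 11.49, 11.50 and 11.55 in WT arrays. The groups did not overlap, and the difference of 0.22 ± 0.03 had the smallest p of the 59 genes in this experiment without passing the adjustment (limma, adjusted p = 0.115). In experiment B ARG4 was at 11.97, 12.04 and 12.01 in euc1-K231R arrays, against 11.95, 12.04 and 12.13 in WT arrays, which overlapped.

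ARG7 (YMR062C, chromosome XIII) encodes the mitochondrial ornithine acetyltransferase. It was at 11.53, 11.59 and 11.40 in euc1∆ arrays, against 11.29, 11.19 and 11.14 in WT arrays, the largest positive difference of the 59 genes at 0.30 ± 0.06 (limma, adjusted p = 0.220). In experiment B its levels were 11.56, 11.48 and 11.48 in euc1-K231R arrays, against 11.57, 11.59 and 11.64 in WT arrays. The mutant arrays were thus all above WT in experiment A and all below WT in experiment B, where the difference was -0.10 ± 0.04 (adjusted p = 0.289).

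ARG5,6 (YER069W, chromosome V) encodes a precursor that is cut into acetylglutamate kinase and acetylglutamyl-phosphate reductase. It was at 10.91, 11.01 and 10.80 in euc1∆ arrays, against 10.72, 10.68 and 10.63 in WT arrays, with no overlap and a difference of 0.23 ± 0.06 (limma, adjusted p = 0.246). ARG1 (YOL058W), argininosuccinate synthetase, was at 12.19, 12.22 and 12.34 in euc1∆ arrays, against 12.10, 12.09 and 12.09 in WT arrays. ARG2 (YJL071W), the acetylglutamate synthase that opens the pathway, was at 9.70, 9.65 and 9.68 in euc1∆ arrays, against 9.61, 9.52 and 9.55 in WT arrays. Both were apart from WT, by 0.15 ± 0.05 (adjusted p = 0.281) for ARG1 and 0.12 ± 0.04 (adjusted p = 0.302) for ARG2. The arrays overlapped for ARG3 (ornithine carbamoyltransferase), ARG8 (acetylornithine aminotransferase) and CPA1 (a subunit of carbamoyl phosphate synthetase), whose differences lay between 0.01 and 0.05.

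**Figure D2:**
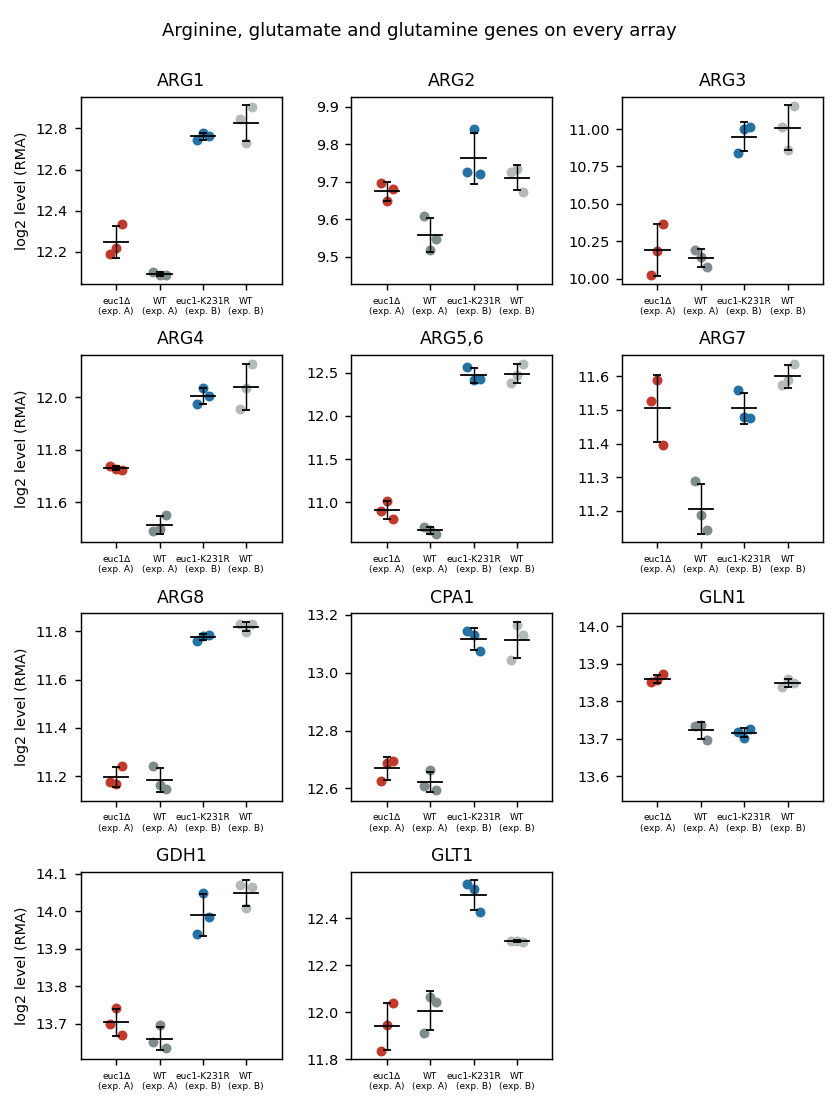
Log2 level (y axis, RMA) of 8 arginine genes and of GLN1, GDH1 and GLT1 on each array (points), with the group mean (line) and SD (bar), for euc1∆ and WT of experiment A and euc1-K231R and WT of experiment B. The experiments were normalised separately, so only groups of the same experiment can be compared; ARG1, ARG2, ARG4, ARG5,6, ARG7 and GLN1 have euc1∆ arrays above all WT arrays.

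Glutamate and glutamine supply the nitrogen of the other amino acids. GLN1 (YPR035W, chromosome XVI) encodes glutamine synthetase, which makes glutamine from glutamate and ammonium. It was at 13.85, 13.86 and 13.87 in euc1∆ arrays, against 13.73, 13.74 and 13.70 in WT arrays. In experiment B it was at 13.72, 13.70 and 13.73 in euc1-K231R arrays, against 13.84, 13.86 and 13.85 in WT arrays. Neither pair of groups overlapped, and the directions were opposite, with 0.14 ± 0.03 in euc1∆ (limma, adjusted p = 0.225) and -0.13 ± 0.04 in euc1-K231R (adjusted p = 0.149).

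GLT1 (YDL171C, chromosome IV) encodes glutamate synthase, which makes glutamate from glutamine and 2-oxoglutarate. It was at 12.55, 12.52 and 12.43 in euc1-K231R arrays, against 12.31, 12.30 and 12.30 in WT arrays, with no overlap and a difference of 0.20 ± 0.05 (limma, adjusted p = 0.108). In experiment A GLT1 was at 11.84, 11.95 and 12.04 in euc1∆ arrays, against 11.91, 12.06 and 12.04 in WT arrays, which overlapped. GDH1, the glutamate dehydrogenase that fixes ammonium, overlapped with WT in both experiments, with differences of 0.04 and -0.06.

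Of the 7 histidine genes, 6 had a positive difference in euc1∆ (50.5% of all genes) and 3 had all arrays above WT (9.84% of all genes). HIS7 (YBR248C), the imidazole glycerol phosphate synthase, was at 11.39, 11.47 and 11.38 in euc1∆ arrays, against 11.17, 11.27 and 11.29 in WT arrays, a difference of 0.17 ± 0.05 (limma, adjusted p = 0.246). HIS5 (YIL116W), histidinol phosphate aminotransferase, was at 11.56, 11.50 and 11.46 in euc1∆ arrays, against 11.44, 11.35 and 11.39 in WT arrays. In experiment B HIS5 was at 11.07, 11.18 and 11.31 in euc1-K231R arrays, against 11.34, 11.29 and 11.39 in WT arrays. The groups were apart for HIS5 only in experiment A, and its differences were 0.12 ± 0.04 (adjusted p = 0.357) and -0.15 ± 0.06 (adjusted p = 0.254).

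HIS3 (YOR202W), imidazole glycerol phosphate dehydratase and a common marker gene of laboratory strains, was the one gene at background. It was at 4.75, 4.35 and 4.56 in euc1∆ arrays, against 4.73, 4.78 and 4.93 in WT arrays, all under the S. pombe 95th percentile. In experiment B it was at 5.67, 5.64 and 5.82 in euc1-K231R arrays, against 5.61, 5.66 and 5.83 in WT arrays, just above that percentile. The percentile was taken over the arrays of both experiments, which were normalised separately. The most negative difference of the 59 genes in euc1∆, -0.25 ± 0.10 for HIS3 (limma, adjusted p = 0.401), was thus measured at the level of probes without a target.

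Of the 11 branched-chain genes, 9 had a positive difference in euc1∆ (50.5% of all genes), and the euc1∆ arrays were above all WT arrays for 6 of them (9.84% of all genes). These 6 were LEU4 and LEU9 (isopropylmalate synthases), ILV1 (threonine deaminase), ILV2 and ILV6 (subunits of acetolactate synthase) and BAT1 (the mitochondrial branched-chain aminotransferase), with differences of 0.05 to 0.14. In experiment B, LEU2 (YCL018W, chromosome III), isopropylmalate dehydrogenase and likewise a common marker gene, was at 12.03, 11.83 and 11.77 in euc1-K231R arrays, against 12.13, 12.13 and 12.11 in WT arrays. All mutant arrays were lower, and the difference of -0.25 ± 0.07 was the largest negative one of the 59 genes (limma, adjusted p = 0.149). BAT2 (YJR148W), the cytosolic branched-chain aminotransferase, was at 12.76, 12.86 and 12.82 in euc1-K231R arrays, against 12.73, 12.68 and 12.74 in WT arrays, higher by 0.10 ± 0.05 (adjusted p = 0.284). The other branched-chain genes apart from WT in experiment B were ILV3, dihydroxyacid dehydratase, and BAT1, each higher by 0.07.

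The 2 genes whose euc1∆ arrays all lay below the WT arrays, LYS20 and LYS9, belong to lysine synthesis. LYS20 (YDL182W, chromosome IV), a homocitrate synthase and the first enzyme of the pathway, was at 11.65, 11.76 and 11.64 in euc1∆ arrays, against 11.88, 11.83 and 11.88 in WT arrays. The groups did not overlap, and the difference was -0.18 ± 0.04 (limma, adjusted p = 0.242). In experiment B LYS20 was at 12.24, 12.37 and 12.18 in euc1-K231R arrays, against 12.23, 12.09 and 12.10 in WT arrays, which overlapped. LYS9, saccharopine dehydrogenase, was also apart and lower in euc1∆, by 0.10 (adjusted p = 0.388), and LYS5, which activates the Lys2 enzyme, was apart and higher, with a difference of 0.04 (adjusted p = 0.604). LYS21, the other homocitrate synthase, had the largest SD of the 59 genes within a group, with 11.33, 11.83 and 11.98 in euc1-K231R arrays, against 11.79, 11.71 and 11.86 in WT arrays.

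The 13 aromatic genes had a median difference of 0.03 in each mutant. In each, 11 of the 13 were positive, as were 50.5% of all genes in euc1∆ and 51.6% in euc1-K231R. None had an unadjusted p under 0.05 (limma) in euc1∆, where 12.4% of all genes did. ARO9 (YHR137W, chromosome VIII), an aromatic aminotransferase that mainly serves the breakdown of aromatic amino acids, was the gene nearest to a call in euc1-K231R. It was at 9.69, 9.68 and 9.75 in euc1-K231R arrays, against 9.35, 9.50 and 9.45 in WT arrays, a difference of 0.27 ± 0.05 without overlap (limma, adjusted p = 0.0704). In experiment A it was at 9.30, 9.27 and 8.91 in euc1∆ arrays, against 8.82, 9.11 and 9.00 in WT arrays, which overlapped. ARO3 and ARO4, the DAHP synthases that open the pathway, were apart and higher in euc1∆, by 0.07 and 0.08. ARO7, chorismate mutase, was apart and higher in euc1-K231R, by 0.04.

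Both serine genes had all euc1∆ arrays above WT (9.84% of all genes). SER1 (phosphoserine aminotransferase) and SER2 (phosphoserine phosphatase) were each higher by 0.09 (limma, adjusted p = 0.337 and 0.335). ASN2 (YGR124W), an asparagine synthetase, was at 13.60, 13.62 and 13.55 in euc1-K231R arrays, against 13.45, 13.50 and 13.51 in WT arrays, a difference of 0.10 ± 0.04 without overlap (limma, adjusted p = 0.240). ASN1, which encodes the other asparagine synthetase, was apart in the opposite direction in euc1-K231R, with a difference of -0.04 ± 0.04 (adjusted p = 0.596). The 3 proline genes had differences of 0.00 to 0.08 in the mutants.

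**Figure D3:**
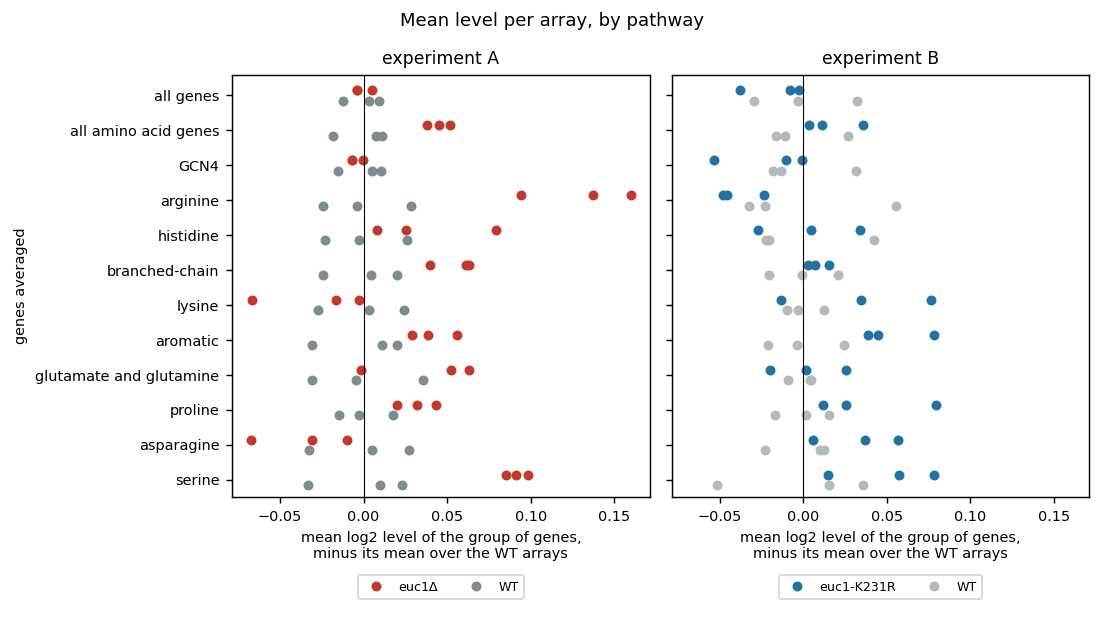
Mean log2 level of the genes of each pathway on each array, minus the mean over the WT arrays of the experiment (x axis), by pathway (y axis), with mutant arrays above WT arrays in each row; the first row gives all 5581 genes. In experiment A the arginine, branched-chain, aromatic, proline and serine rows have all euc1∆ points right of all WT points, and in experiment B the aromatic row is the one with all euc1-K231R points to the right.

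The effects of the mutants were set against each other by subtracting the difference in euc1-K231R cells from that in euc1∆ cells. The mutants were measured in different experiments, and URA3 was raised only in euc1-K231R cells. The EUC1 transcript also differed from WT in euc1-K231R cells, by -1.02 log2 units. Allele, EUC1 level, marker and experiment therefore cannot be told apart in this comparison. Of the 59 genes 2 were called, GLN1 and ARG7, where 1.25% of all genes were. GLN1 differed by 0.27 ± 0.04 (limma, adjusted p = 0.0124, 95% interval 0.18 to 0.36) and ARG7 by 0.39 ± 0.08 (adjusted p = 0.0346, 95% interval 0.22 to 0.56). Leaving out each array in turn kept GLN1 under the threshold in 12 of 12 fits, with adjusted p of 0.0193 to 0.0494, and ARG7 in 3 of 12, with adjusted p of up to 0.102. Neither passed with the replicate number as a block (0.106 for GLN1 and 0.0992 for ARG7). At an unadjusted p under 0.05, 8 genes were positive (8.64% of all genes) and 4 negative (8.12% of all genes), together 20.3% of the 59 genes and 16.8% of all genes.

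The other large differences between the effects did not pass the adjustment. They were -0.30 ± 0.08 for LYS20 (limma, adjusted p = 0.108), 0.30 ± 0.10 for LEU2 (adjusted p = 0.154) and 0.27 ± 0.08 for HIS5 (adjusted p = 0.136). All 9 arginine genes had a positive value, as did 49.6% of all genes, with a median of 0.13. Over the 59 genes, 33 had the same direction in both mutants (55.9%), 29 higher and 4 lower, compared with 51.8% of all genes. After the group means were subtracted, the levels of pairs of the 59 genes correlated over the 12 arrays with a median r of 0.11 (1711 pairs), and those of the 9 arginine genes with a median r of -0.01 (36 pairs), pairs that share the same arrays.

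**Figure D4:**
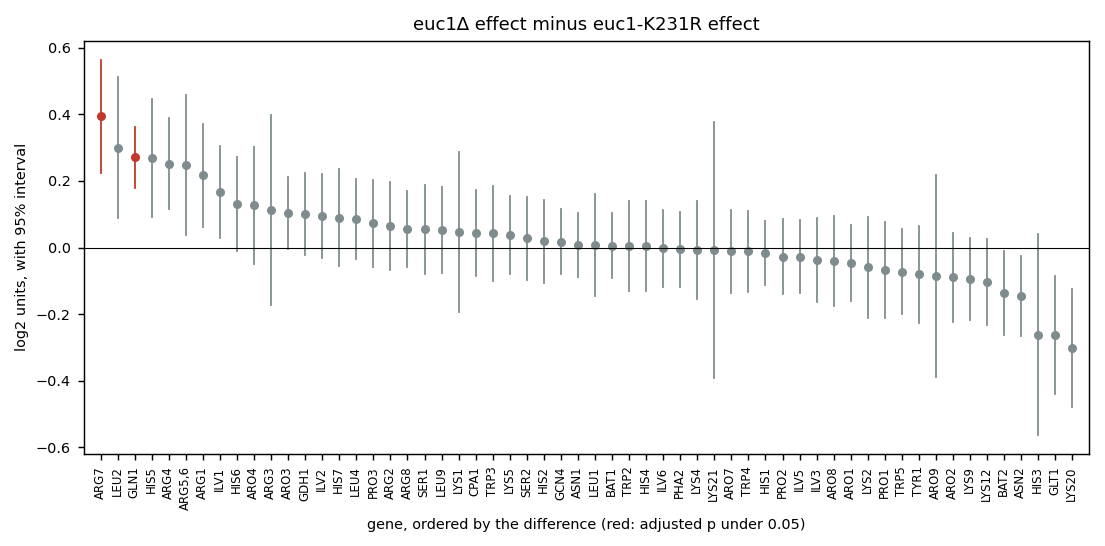
Difference between the mutants: change in euc1∆ less change in euc1-K231R (y axis, log2 units, point with its 95% interval) for 58 of the 59 genes, ordered by size (x axis). GLN1 and ARG7, in red, are the genes with an adjusted p under 0.05 over all genes.

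Genes around these pathways were taken from lists written with earlier results of these data known. None of 13 genes of Gcn4 synthesis and activity was called in either mutant by limma, and 2 had an unadjusted p under 0.05 in euc1∆ (12.4% of all genes) and 2 in euc1-K231R (19.4% of all genes). The smallest p among them belonged in euc1∆ to GCN1, the activator of Gcn2, with -0.12 ± 0.03 (limma, adjusted p = 0.277), and in euc1-K231R to PCL5, a cyclin that directs the breakdown of Gcn4 and is itself a Gcn4 target, with -0.17 ± 0.06 (adjusted p = 0.183). None of 12 pathway-specific regulators, 17 genes of other amino acid synthesis and 9 genes of amino acid breakdown was called in either comparison with WT. Their counts at an unadjusted p under 0.05 (limma) were 0, 3 and 2 in euc1∆ and 1, 1 and 2 in euc1-K231R, in the order of these lists, with the same shares of all genes. ARO10, the phenylpyruvate decarboxylase that acts after Aro9, had 9.40, 9.25 and 9.39 in euc1-K231R arrays, against 9.00, 9.19 and 9.14 in WT arrays, a difference of 0.24 ± 0.07 (adjusted p = 0.146).

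The calls were found among the genes of amino acid uptake. Of 20 permease and sensor genes, 2 were called lower in euc1-K231R, where 0.717% of all genes were. None was called in euc1∆, where 2 were higher at an unadjusted p under 0.05 (limma), as were 6.36% of all genes. GAP1, the general amino acid permease, was at 9.56, 9.28 and 9.36 in euc1-K231R arrays, against 9.95, 10.21 and 10.08 in WT arrays, and fell by 0.68 (SE 0.09; limma, adjusted p = 0.0210). AGP1, a permease of broad specificity induced by external amino acids, was at 11.74, 11.55 and 11.51 in euc1-K231R arrays, against 12.04, 12.24 and 12.03 in WT arrays, with a difference of -0.50 ± 0.08 (adjusted p = 0.0483). GAP1 was no longer called without euc1-K231R replicate 2 (adjusted p = 0.124) or WT replicate 2 (adjusted p = 0.0542), and AGP1 remained called in 1 of 6 fits that each left out an array (adjusted p up to 0.219). The difference between the mutants' effects was 0.64 for GAP1 (limma, adjusted p = 0.0227) and 0.58 for AGP1 (adjusted p = 0.0207). Each of these passed in 7 of 12 fits that left out an array.

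**Figure D5:**
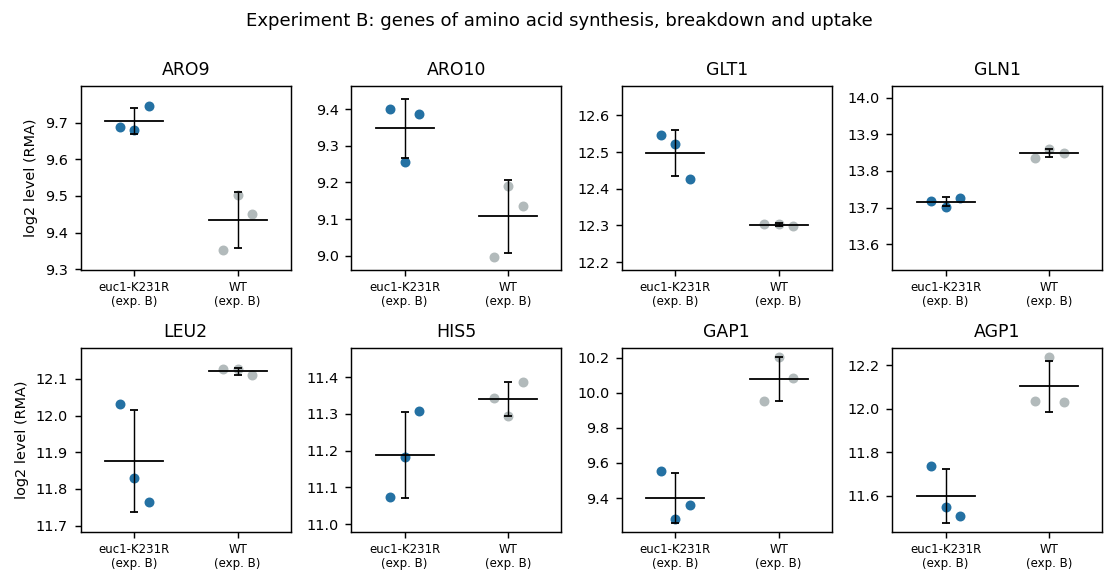
Log2 level (y axis, RMA) of 8 genes of amino acid synthesis, breakdown and uptake on the euc1-K231R and WT arrays of experiment B (points), with the group mean (line) and SD (bar). ARO9, ARO10 and GLT1 have all euc1-K231R arrays above WT, GLN1, LEU2, GAP1 and AGP1 have them all below, and HIS5 overlaps.

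Markers of other cell states were measured on the same arrays. The mean level of 14 general stress genes was 9.52, 9.29 and 9.04 in euc1∆ arrays, against 9.07, 9.23 and 9.22 in WT arrays, which overlapped. In experiment B it was 9.28, 9.23 and 9.13 in euc1-K231R arrays, against 9.29, 9.51 and 9.32 in WT arrays, so that all mutant arrays were lower. HSP12 and DDR2 were called lower in euc1-K231R (0.717% of all genes). Their differences were -0.88 and -0.84 (limma, adjusted p = 0.027 and 0.0486). The list was mixed, with a median difference of -0.06. TSL1 and GSY1 had all euc1-K231R arrays above WT, by 0.19 and 0.20, without a call. Of 13 meiosis and sporulation genes HOP1 was called lower in euc1-K231R (0.717% of all genes). Its difference was -0.55 (limma, adjusted p = 0.0210), and the median difference of the list was -0.20. This list was mixed too: IME1, RED1 and SPS4 had all euc1-K231R arrays above WT, by 0.23, 0.17 and 0.30, without a call. Of 10 mating type genes none was called by limma, with 4 at an unadjusted p under 0.05 in each mutant (12.4% of all genes in euc1∆ and 19.4% in euc1-K231R). Their part in the differences of the amino acid genes was not tested.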

How the data were processed

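RNA of 12 yeast cultures was hybridised to Affymetrix arrays. The authors deposited log2 expression values made with RMA; the submitters' processing notes also name limma, without versions in the sources used here. They also deposited tables of their own log2 fold changes and adjusted p-values, from which only probe set names were taken. No exact value was shared between arrays of different experiments, so these were taken as normalised separately. Levels were compared only within an experiment, except against the S. pombe percentile, which was taken over the arrays of both experiments.

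Of 10928 probe sets, 5713 were S. cerevisiae, and 132 that match several transcripts were left out. RefSeq names (assembly R64) were found for 5564 of 5581 genes. Each mutant was compared with its WT with limma 3.58.1 (lmFit, eBayes) in R 4.3.3, and the effects were compared in a fit of 12 arrays. P-values were adjusted by Benjamini-Hochberg over 5581 genes. The method was tested on simulated data. Plots were made in Python 3.11.15 with matplotlib 3.10.9. The number of arrays limits the precision.

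The genes and lists were chosen with earlier results of these data known. Values per array are given for GCN4, genes called in either comparison with WT or in the difference between the effects (unweighted fits), the 8 genes with the smallest p in each comparison with WT, genes at background and the 5 largest differences between the effects; of each other list, genes called or those with the smallest p. The values of 1 gene are not reported here on their own and it is left out of the plots. A planned count of promoter motifs was not run, as no sequences were used here. Alternatives covered normalisation, centring, filtering, the prior, the samples fitted, the probe sets, array weights, a replicate block and leaving out each array.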

Additional observations from a re-analysis of the deposited data

Results flagged for a closer look

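For 2 of the 59 genes the effects of the mutants differed by a test of the difference itself. The mutants came from different experiments, and only euc1-K231R cells had raised URA3. The EUC1 transcript also differed from WT in euc1-K231R cells, by -1.02 log2 units. Allele, EUC1 level, marker and experiment therefore cannot be told apart. GLN1 (glutamine synthetase) was higher in euc1∆ and lower in euc1-K231R than in the WT of each experiment, with a difference between the effects of 0.27 (limma, adjusted p = 0.0124). ARG7 (ornithine acetyltransferase) differed by 0.39 (limma, adjusted p = 0.0346). With 1 array left out, GLN1 passed in 12 of 12 fits and ARG7 in 3 of 12, and neither passed with the replicate block (0.106 and 0.0992) or with all probe sets of the array (0.0942 and 0.122). For both genes, all 3 mutant arrays lay above the WT arrays in experiment A and below them in experiment B.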

How the results depend on the processing

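With 3 arrays per group, the calls depended on how the spread was estimated. For euc1∆, 0 genes were called, but 2 with a trended, robust prior (ARG4, limma adjusted p = 0.0452, and GLN1, 0.0267) and 2 with array weights (ARG4, 0.0384, and ARG7, 0.0305). At an unadjusted p under 0.05, the 14 higher genes became 8 with all probe sets of the array and 9 with the replicate block, and the 3 lower ones 1 and 1. For euc1-K231R, 0 calls became 1 in a fit of 12 arrays (GLN1, adjusted p = 0.0462), and the 3 genes higher at an unadjusted p became 5 with quantile normalisation, 6 with the trended prior and 7 in the fit of 12 arrays. For the difference between the effects, 2 calls became 0 with all probe sets (GLN1 0.0942, ARG7 0.122) and 0 with the replicate block.

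Array weights changed the counts most. As planned, with limma's default estimate, they gave 17 called genes of the 59 in euc1-K231R (18 higher and 5 lower at an unadjusted p) and 14 for the difference (9 lower at an unadjusted p), with 1892 and 1157 calls among all genes. That estimate gave a convergence warning in both of these fits, and weighted euc1-K231R replicate 2 at 5.47 in the fit of experiment B and at 4.11 in the fit of 12 arrays. After these counts were seen, weights estimated gene by gene were added; they gave 0 calls in euc1∆, 4 in euc1-K231R (12 higher and 5 lower at an unadjusted p) and 11 for the difference, with 731 calls among all genes in euc1-K231R and 626 for the difference. Both versions are given, and neither replaces the unweighted fit.

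GCN4, near 0 throughout, changed sign with quantile normalisation in euc1-K231R (0.0166) and in the difference (-0.0259), with array weights in the difference (-0.00336) and without WT replicate 3 in euc1∆ (0.000764, with -0.0123 as the lowest value without 1 array). With median centring, 30 of the 59 genes were positive in euc1-K231R. Leaving out each array gave 0 to 0 calls in euc1∆ (7 to 11 higher and 1 to 3 lower at an unadjusted p), 0 to 1 in euc1-K231R (2 to 8 higher, 2 to 3 lower; LEU2 was called without euc1-K231R replicate 1, adjusted p = 0.0415) and 1 to 2 for the difference (6 to 10 higher, 2 to 5 lower). HIS5 was called in the difference without euc1-K231R replicate 3 (adjusted p = 0.0495). The median difference stayed between 0.03 and 0.05 in euc1∆, 0.01 and 0.03 in euc1-K231R, and 0.00 and 0.03 for the difference.

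The deviations of same-numbered arrays from their group means correlated with r of -0.20, 0.11 and -0.21 in experiment A and -0.22, -0.09 and 0.30 in experiment B. Differently numbered arrays reached 0.31 in experiment A and 0.41 in experiment B. With deviations from means of 3 arrays, these values cannot decide whether the replicate numbers pair the samples. GAP1 and AGP1 were also lost with the replicate block (0.0878 and 0.1003) and with all probe sets (0.0702 and 0.148).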
